A study of Mus musculus with 39 samples.

Results

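The genes described here encode 47 enzymes of amino acid degradation and of methionine and folate metabolism in liver. They were chosen by name from known pathways, and all 47 were found among the 13230 genes that have values in both gradients. By the textbook location of the enzyme, 28 were taken as cytosolic and 19 as mitochondrial. All 47 passed the filter on low values that left 11754 genes for testing.

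Hepatocytes are the main site where the carbon skeletons of most amino acids are broken down. Several routes begin with a cytosolic enzyme, as for tyrosine, tryptophan, histidine and serine, whereas the branched-chain amino acids, propionyl-CoA, glycine cleavage, proline and ornithine are handled in the mitochondrial matrix. Methyl groups pass from methionine through S-adenosylmethionine, and the folate cycle carries carbon units in both compartments. The mitochondrial enzymes of these lists are made from nuclear genes, so their mRNAs are exported to the cytoplasm and translated by cytoplasmic ribosomes.

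RNA was sequenced from sucrose gradients (10 to 50% sucrose) loaded with liver homogenate of wild type FVB female mice, 1 gradient for each of 2 animals. Tissue was broken with ceramic beads in buffered sucrose, with no detergent and with a vanadyl complex against ribonucleases, and nuclei were spun out before loading. Membranes, organelles, ribosomes and other complexes were thus still present when the homogenate was spun through the gradient. There is no treatment and no second genotype, so that all 39 libraries (17 of gradient 1, fractions 4 to 19 and 21, and 22 of gradient 2, fractions 3 to 24) differ in density and gradient. Fractions with low numbers are light.

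Values are TPM, a level corrected for transcript length and scaled to the same total in each library, so that it holds a share and no absolute amount. TPM does not hold the number of reads, so the depth behind each value is unknown. For tests, log2(TPM + 1) was averaged over 4 fractions in a light zone (fractions 4 to 7), a middle zone (10 to 13) and a dense zone (16 to 19) of each gradient, and zones were compared with limma (2 gradients per zone, Benjamini-Hochberg adjustment over 11754 genes, adjusted p under 0.05 called). Changes below are differences of this log2 value, folds are computed from them, and TPM values are zone means given for gradient 1 and then gradient 2. The pseudocount makes folds of low genes smaller than they are. All 3 zones of a gradient were cut from 1 loaded homogenate, and values of a fit with the gradient as a block are given where that fit changed a call described here.

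RNAs of amino acid degradation made up a growing share of the RNA toward the dense side of the gradient. Summed over the 47 genes, they took 1.34% of all TPM in the light zone, 3.17% in the middle zone and 5.20% in the dense zone of gradient 1, and 1.66%, 3.58% and 5.56% in gradient 2. The 4 most abundant members, Hpd, Gnmt, Mat1a and Cdo1, held 43.9% and 42.0% of the members' TPM in the dense zone. Without them, the other 43 still went from 0.685% to 2.92% of all TPM in gradient 1 and from 0.881% to 3.22% in gradient 2.

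From the light to the dense zone 40 of 47 members rose and 1, Ahcy, fell, where 22.3% of all genes tested rose and 39.6% fell. The median change was 2.18 over the members (2.23 in gradient 1 and 2.13 in gradient 2) and -0.43 over all genes. All 47 members are among the 7233 genes with a mean of at least 10 TPM, of which 30.8% rose and 35.5% fell, with a median of -0.14. The remaining 6 were Gstz1, Afmid, Gcsh, Dbt, Cdo1 and Csad. With the gradient as a block Dbt (adjusted p = 0.00503) and Csad (adjusted p = 0.000221) passed as well, and 30.5% of all genes rose and 50% fell. Quantile normalization of the libraries moved the median of all genes to -0.05 and gave 3603 higher and 3512 lower genes in place of 2616 and 4658, and 39 members then rose and 1 fell.

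**Figure D1:**
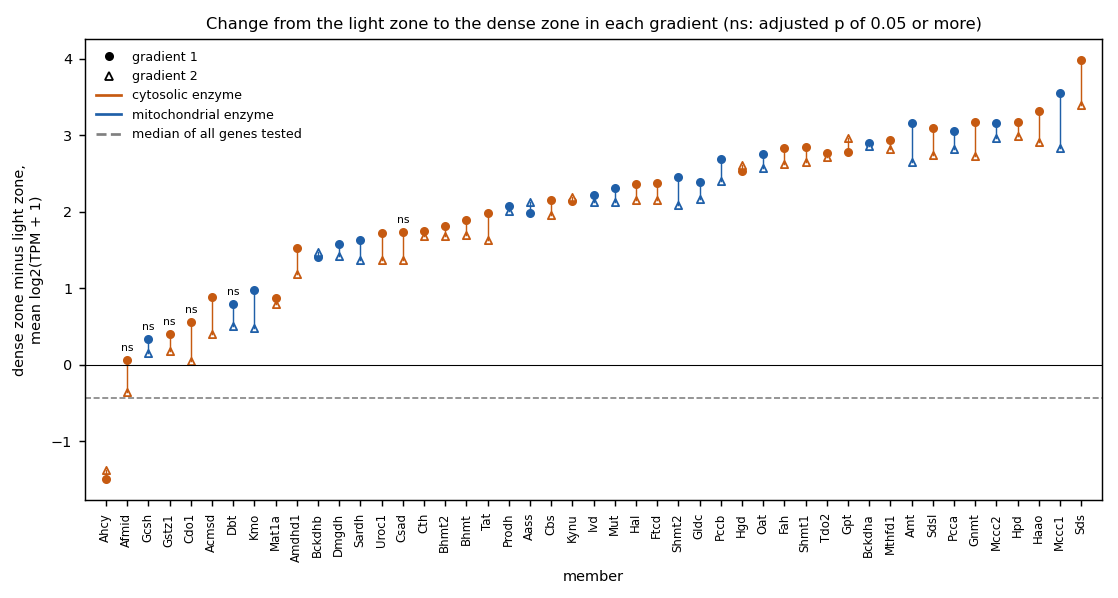
Light-to-dense change of each of the 47 members, as the difference of mean log2(TPM + 1), with filled circles for gradient 1, open triangles for gradient 2 and colors for the compartment of the enzyme. Members run from Ahcy at -1.43 to Sds at 3.69, the dashed line is the median of all genes tested (-0.43), and the 6 members marked ns did not pass the test.

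The rise took place on both sides of the middle zone. Between the light and middle zones 37 members rose and 1 fell, with a median of 1.31, where 23.5% of all genes rose, 24.1% fell and the median was 0.05. Among genes of at least 10 TPM 34.5% rose, 20.4% fell and the median was 0.30. With the gradient as a block 43 members rose and 1 fell in this step, and 37.2% and 35% of all genes. Between the middle and dense zones 22 members rose and 1, Gcsh, fell, with a median of 0.81, where 4.79% of all genes rose, 22.5% fell and the median was -0.28. Among genes of at least 10 TPM 8.54% rose and 31.1% fell. With the gradient as a block, the second step gave 36 higher and 4 lower members, and 14.1% and 39.3% of all genes. With the zones of gradient 2 shifted by 1 fraction to the dense side, 13 members and 255 of all genes were higher in it. Quantile normalization turned the median of all genes in this step to 0.03, with 1213 genes higher and 1607 lower in place of 563 and 2645, and 20 members higher and 2 lower.

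The profiles of most members were alike in both gradients. A profile is TPM relative to the gene's mean in that gradient, and Pearson's R between the gradients over the 17 shared fraction numbers had a median of 0.961 over members and 0.899 over all genes. It was highest for Mccc2 (0.993) and lowest for Acmsd (0.590), which is also the least abundant member at a mean of 19.6 TPM. The highest fraction lay at 15 or above for 42 members in gradient 1 (26 at 15 to 19 and 16 beyond) and for 41 in gradient 2 (14 and 27). Gradient 1 has no library beyond fraction 21, so peaks at the dense end cannot be placed alike in the 2 gradients.

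**Figure D2:**
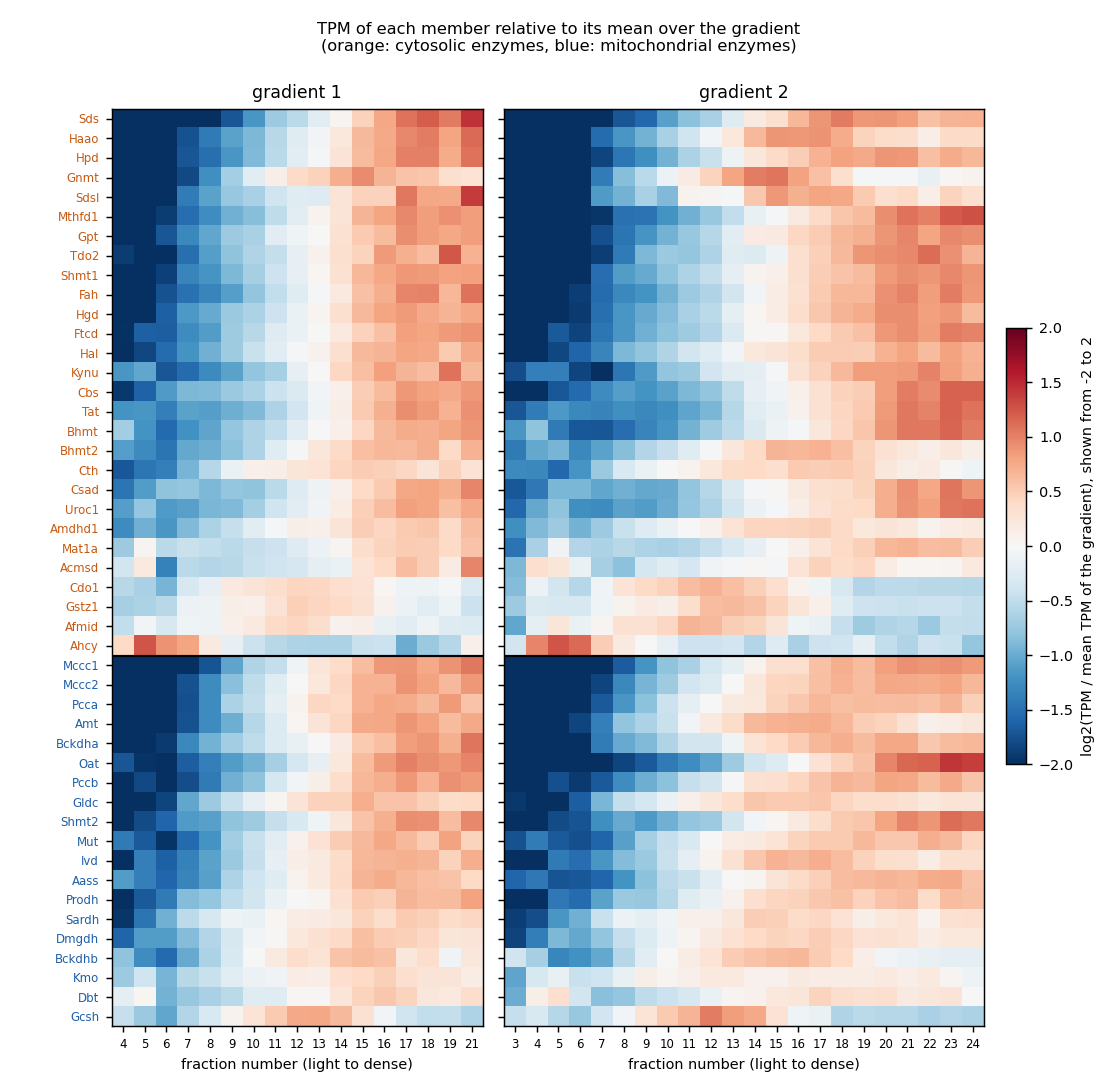
Profiles of the 47 members in gradient 1 (17 fractions) and gradient 2 (22 fractions), as log2 of TPM over its mean in the gradient, with cytosolic enzymes above the line and mitochondrial enzymes below it, each ordered by the change from light to dense. Most rows turn from blue to red between fractions 9 and 16, whereas Cdo1, Gstz1, Afmid and Gcsh are highest near fractions 11 to 13 and Ahcy is highest at fraction 5.

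RNAs of cytosolic and of mitochondrial enzymes followed almost the same course. From light to dense, 23 of 28 cytosolic members rose and 1 fell. The median over all 28 was 2.12 (2.15 and 2.06 in gradients 1 and 2). Of the mitochondrial members 17 of 19 rose, with a median over all 19 of 2.22 (2.31 and 2.13). Among all genes tested 22.3% rose and 39.6% fell. The mean profiles of the compartments correlated at R = 0.980 in gradient 1 over 17 fractions and at R = 0.980 in gradient 2 over 22 fractions. The profiles share libraries and neighboring fractions are alike, so these values are descriptions.

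The rise was divided between the steps as follows. In the first step 20 of 28 cytosolic and 17 of 19 mitochondrial members rose, where 23.5% of all genes did. The medians over all cytosolic and all mitochondrial members, called or not, were 1.14 and 1.33. In the second step 14 cytosolic and 8 mitochondrial members rose, where 4.79% of all genes did. The medians over all cytosolic and all mitochondrial members were then 1.03 and 0.72. With the gradient as a block the first step gave 25 cytosolic members higher and 1 lower and 18 mitochondrial members higher, and the second gave 22 cytosolic members higher and 3 lower, and 14 mitochondrial members higher and 1 lower. The 8 mitochondrial calls fell to 5 when fraction 7 of gradient 1 was left out. The mitochondrial mean profile stood above the cytosolic one by up to 0.131 and 0.124 of the gradient mean, at fraction 13 in both gradients, and below it by up to 0.159 at fraction 21 of gradient 1 and 0.113 at fraction 24 of gradient 2. The TPM-weighted mean fraction over the 17 shared fractions had a median of 14.7 and 14.7 for cytosolic members, 14.5 and 14.4 for mitochondrial members and 11.3 and 11.3 for all genes. Genes are not replicates, and the difference between compartments was not tested.

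**Figure D3:**
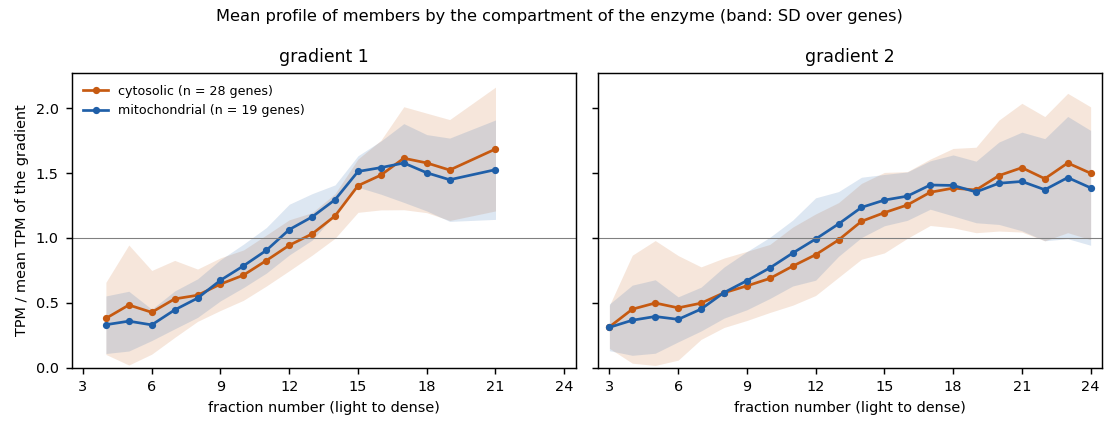
Mean profile of 28 cytosolic and 19 mitochondrial members in each gradient, as TPM over its mean in the gradient against fraction number, with bands of 1 SD over genes. The lines run together (R = 0.980 in each gradient), with the mitochondrial line above by at most 0.131 and 0.124 at fraction 13 and below by at most 0.159 at fraction 21 of gradient 1 and 0.113 at fraction 24 of gradient 2.

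RNAs of cytosolic enzymes covered the wider range of levels. Over the 24 libraries of the zones the median level was 446 TPM for cytosolic members, from 19.6 for Acmsd to 4746 for Hpd. For mitochondrial members it was 217 TPM, from 44.1 for Mccc1 to 522 for Dmgdh.

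In tyrosine degradation 4 of 5 members rose from light to dense. Tyrosine aminotransferase (Tat), which removes the amino group, had 470 and 1017 TPM in the light zone, 779 and 1314 in the middle zone and 1869 and 3166 in the dense zone. It was higher in gradient 2 in each zone, and rose by 1.81 ± 0.48 (SE, adjusted p = 0.0192), a 3.51-fold rise. Neither of its steps alone passed, while with the block both did (adjusted p = 0.0201 and 0.00155).

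Hpd, the dioxygenase that follows and the most abundant member, lies at chr5:123171807-123182727 on the minus strand of mm10. It had 1071 and 1162 TPM in the light, 3856 and 3976 in the middle and 9315 and 9094 in the dense zone. The gradients differed far less than the zones, and the rise of 3.08 ± 0.19 (adjusted p = 0.000301) is 8.48-fold. Fumarylacetoacetate hydrolase (Fah), the last enzyme of the route, went from 336 and 391 TPM through 1003 and 1025 to 2324 and 2346 TPM, a rise of 2.73 ± 0.17 (adjusted p = 0.000301). Hgd, which opens the ring of homogentisate, also rose (2.58).

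Gstz1, the maleylacetoacetate isomerase between Hgd and Fah, was set apart from its neighbors in the pathway. It had 788 and 913 TPM in the light, 1376 and 1483 in the middle and 1036 and 1046 in the dense zone. Its rise into the middle zone passed (0.75, adjusted p = 0.0157) and its change from light to dense did not (0.29, adjusted p = 0.184). With the block, its change from middle to dense of -0.46 passed too (adjusted p = 0.0239).

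In tryptophan degradation 5 of 6 members rose from light to dense, over a wide range of sizes. Tryptophan dioxygenase (Tdo2), the first enzyme, had 201 and 421 TPM in the light, 626 and 1234 in the middle and 1377 and 2783 in the dense zone. Gradient 2 was higher throughout, and the rise within each gradient was 2.78 and 2.72 (mean 2.75 ± 0.54, adjusted p = 0.00664). Haao, which makes the precursor of quinolinate, rose more, from 261 and 256 TPM through 1012 and 978 to 2475 and 1872 TPM (3.11 ± 0.19, adjusted p = 0.000301).

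Kynurenine monooxygenase (Kmo), which sits in the outer mitochondrial membrane, rose least among the mitochondrial members called without the block. It had 221 and 267 TPM in the light, 350 and 368 in the middle and 434 and 373 in the dense zone, a rise of 0.73 ± 0.18 (adjusted p = 0.0135). Under quantile normalization this call was lost. Kynu, which cleaves kynurenine and hydroxykynurenine, rose by 2.17, whereas Acmsd, which diverts the route from NAD synthesis, rose by 0.65 with an adjusted p of 0.0446. The Acmsd call was lost when any of 6 single libraries was left out (fractions 4, 5, 6 and 17 of gradient 1 and fractions 6 and 7 of gradient 2), with changes of 0.52 to 0.76 and adjusted p of 0.05 to 0.116.

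Afmid, the formamidase of the second step, was the member whose change from light to dense differed in sign between the gradients (0.06 and -0.35). It had 132 and 212 TPM in the light, 196 and 314 in the middle and 136 and 168 in the dense zone, so that the middle zone was highest in both gradients. Its mean change from light to dense was -0.14 ± 0.32 (adjusted p = 0.716). With the block its rise into the middle zone (0.57, adjusted p = 0.0145) and its fall out of it (-0.72, adjusted p = 0.00933) passed. Of its 31-mers 64.4% are shared with Gm20708, which overlaps it on the same strand. Reads of these genes cannot be told apart over most of the transcript. Gm20708 is not among the genes with values in both gradients, and whether reads were split with it is unknown.

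All 4 members of histidine degradation rose from light to dense. Histidine ammonia-lyase (Hal), the entry enzyme, had 146 and 139 TPM in the light, 413 and 362 in the middle and 736 and 615 in the dense zone (2.26 ± 0.17, adjusted p = 0.000353). Uroc1 (1.55), Amdhd1 (1.36) and Ftcd (2.27), which carry the chain on to glutamate and a formimino group on folate, rose as well.

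Serine dehydratase (Sds), which turns serine into pyruvate, had the steepest gradient of the 47. It lies at chr5:120476526-120483932 on the plus strand of mm10. It had 71.7 and 96.9 TPM in the light, 345 and 342 in the middle and 1090 and 994 in the dense zone. The zones did not overlap and the rise of 3.69 ± 0.20 (adjusted p = 0.000301) is 12.9-fold. In gradient 1 its profile went from 0.0698 of its mean at fraction 4 to 2.71 at fraction 21, and in gradient 2 from 0.105 at fraction 4 to 2.05 at fraction 18. Sdsl, its paralog and far less abundant, rose by 2.92.

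The glycine cleavage system, a mitochondrial complex that splits glycine and passes a methylene group to folate, had both shapes in 1 complex. Its decarboxylase Gldc had 91.1 and 67.1 TPM in the light, 356 and 229 in the middle and 448 and 287 in the dense zone (2.28 ± 0.32, adjusted p = 0.00192). Most of this rise lay between light and middle (1.95). The aminomethyltransferase Amt rose by 2.91.

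Gcsh, the lipoyl carrier protein that moves between the other subunits, did not follow them. It had 83.0 and 87.4 TPM in the light, 202 and 210 in the middle and 105 and 98.2 in the dense zone. It rose by 1.26 into the middle zone (adjusted p = 0.00201) and fell by 1.01 out of it (adjusted p = 0.00818), and light and dense did not differ past the threshold (0.25, adjusted p = 0.179). The profiles of Gldc and Amt correlated at 0.954 and 0.981 in gradients 1 and 2, those of Gldc and Gcsh at 0.463 and 0.279, and those of Amt and Gcsh at 0.198 and 0.218 (17 and 22 fractions).

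In methionine and homocysteine metabolism 6 of 7 members rose and 1 fell. Mat1a, the liver enzyme that makes S-adenosylmethionine, had 2176 and 2740 TPM in the light, 2297 and 2687 in the middle and 3913 and 4714 in the dense zone. It was nearly level from light to middle (0.04, adjusted p = 0.886), and its rise to the dense zone was 0.84 ± 0.23 (adjusted p = 0.0211). Glycine N-methyltransferase (Gnmt), which uses up S-adenosylmethionine, had the reverse division of its rise. It went from 698 and 1059 TPM in the light to 4703 and 6219 in the middle and 5887 and 6626 in the dense zone, 2.73 in the first step (adjusted p = 0.00159) and 0.22 in the second (adjusted p = 0.614). Its profile was highest at fraction 15 in both gradients.

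Cystathionine beta-synthase (Cbs), which commits homocysteine to cysteine synthesis, had 352 and 285 TPM in the light, 707 and 498 in the middle and 1520 and 1103 in the dense zone (2.06 ± 0.26, adjusted p = 0.00137). Its call in the first step (0.93, adjusted p = 0.0313) was lost without fraction 4 of gradient 1 (0.84, adjusted p = 0.0561). Betaine-homocysteine methyltransferase (Bhmt), which returns homocysteine to methionine, had 471 and 1052 TPM in the light, 834 and 1527 in the middle and 1707 and 3324 in the dense zone (1.79 ± 0.53, adjusted p = 0.0278). The gradients differed in level at every zone, and with the block both steps of Bhmt passed (adjusted p = 0.00487 and 0.00171). Of its 31-mers 68.5% occur in other genes, 63.4% in Gm5096, so its level is uncertain. Gm5096 is not among the genes with values in both gradients, and whether reads were split with it is unknown. Cth (1.72) and Bhmt2 (1.75) rose by similar amounts.

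Ahcy, which hydrolyzes S-adenosylhomocysteine, was the member that fell. It lies at chr2:155059310-155074497 on the minus strand of mm10. It had 129 and 178 TPM in the light, 48.2 and 70.5 in the middle and 44.7 and 67.4 in the dense zone, a change of -1.43 ± 0.30 (adjusted p = 0.00863), and its profile was highest at fraction 5 in both gradients. The level of Ahcy is uncertain. Of its 31-mers 76.5% are also in Gm4737, a near copy that was listed at 3298 and 3515 TPM in the light, 1592 and 2225 in the middle and 2231 and 3170 in the dense zone. Ahcy was 1.97 to 4.86% of the sum of both. Gm4737 fell from light to middle (-0.83, adjusted p = 0.0481), as Ahcy did (-1.34, adjusted p = 0.0154), and its change from light to dense was -0.33 (adjusted p = 0.321). The sum of both was 3427, 1640 and 2276 TPM in gradient 1 and 3693, 2296 and 3237 TPM in gradient 2 and was not tested. Reads of these genes cannot be told apart over the shared sequence.

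All 5 members of choline breakdown and the folate cycle rose. Serine hydroxymethyltransferase exists as a cytosolic enzyme (Shmt1) and a mitochondrial enzyme (Shmt2) made from separate genes. Shmt1 had 117 and 103 TPM in the light, 372 and 312 in the middle and 797 and 628 in the dense zone (2.75 ± 0.19, adjusted p = 0.000328). Shmt2 had 69.5 and 84.7, then 166 and 167, then 374 and 359 TPM (2.28 ± 0.16, adjusted p = 0.000337). The RNAs of both forms ran in parallel, with R = 0.988 in each gradient, and the rise of Shmt2 minus that of Shmt1 was -0.39 and -0.55. Mthfd1, which interconverts folate units in the cytosol, rose by 2.89, and the mitochondrial dehydrogenases Dmgdh and Sardh rose by 1.50 and 1.51.

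Ornithine aminotransferase (Oat) had 95.7 and 198 TPM in the light, 243 and 443 in the middle and 646 and 1192 in the dense zone. Gradient 2 was higher in each zone, and the rise was 2.66 ± 0.49 (adjusted p = 0.00529), 6.33-fold. Both of its steps passed only with the block (adjusted p = 0.000549 and 0.000954). In gradient 2 it kept rising to 2.70 times its mean at fraction 23, and fractions 22 to 24 lay 1.00 above its dense zone. Proline dehydrogenase (Prodh) rose by 2.04.

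Of the 9 members of branched-chain amino acid and propionyl-CoA degradation, all mitochondrial, 8 rose from light to dense. Bckdha, a catalytic subunit of the dehydrogenase that commits branched-chain ketoacids to breakdown, had 139 and 114 TPM in the light, 486 and 392 in the middle and 958 and 773 in the dense zone (2.88 ± 0.21, adjusted p = 0.000331). Its partner Bckdhb rose by 1.44, and Dbt, the transacylase core, had a change of 0.66 that did not pass (adjusted p = 0.137) except with the block. Profiles of these subunits correlated at 0.617 to 0.746 for Bckdha with Bckdhb, at 0.696 to 0.796 for Bckdha with Dbt and at 0.441 to 0.781 for Bckdhb with Dbt.

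The subunits of the biotin carboxylases were more alike. Mccc1 of methylcrotonyl-CoA carboxylase (leucine) had 6.28 and 11.6 TPM in the light, 38.4 and 41.9 in the middle and 79.3 and 87.3 in the dense zone (3.19 ± 0.30, adjusted p = 0.000582). Mccc2 had 26.3 and 30.4, then 127 and 127, then 234 and 238 TPM (3.07 ± 0.15, adjusted p = 0.000301). The pair correlated at 0.988 and 0.990.

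Pcca of propionyl-CoA carboxylase had 23.0 and 27.6 TPM in the light, 114 and 119 in the middle and 193 and 195 in the dense zone (2.94 ± 0.16, adjusted p = 0.000301). Pccb rose by 2.55, and the pair correlated at 0.978 and 0.978. Methylmalonyl-CoA mutase (Mut), which passes propionate carbon to the citric acid cycle, had 51.2 and 65.8, then 154 and 182, then 257 and 290 TPM (2.22 ± 0.20, adjusted p = 0.000502). Ivd, the isovaleryl-CoA dehydrogenase of leucine breakdown, rose by 2.18. The calls of Ivd, Mccc1 and Mut from middle to dense (adjusted p = 0.0474, 0.0481 and 0.0438) were lost without any of 11, 10 and 8 single libraries, with adjusted p of up to 0.0803, 0.0762 and 0.0667.

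Of the 4 members of alanine, cysteine and lysine metabolism 2 rose from light to dense. Alanine aminotransferase (Gpt) rose by 2.88 and the mitochondrial lysine enzyme Aass by 2.05. Cdo1, the cysteine dioxygenase that leads to taurine and sulfate, had 2545 and 2818 TPM in the light, 4960 and 5103 in the middle and 3714 and 2927 in the dense zone. It was highest in the middle zone in both gradients, and its change from light to dense of 0.30 did not pass (adjusted p = 0.260).

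Csad, the decarboxylase that follows Cdo1 toward taurine, had the largest standard error of the 47, since the gradients differed in level. It had 241, 368 and 790 TPM in the light, middle and dense zones of gradient 1 and 64.8, 86.5 and 169 TPM in those of gradient 2. Gradient 1 was higher in every zone. Animal and gradient run differ together between the gradients and cannot be told apart. Whether library preparation differed as well is not given in the sources used here. In bulk RNA, fewer cells of a type and less RNA per cell cannot be told apart either. The change of Csad was 1.73 and 1.38 within the gradients (SE 1.05). Its adjusted p was 0.241 without the block and 0.000221 with it.

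Gcsh, Gstz1, Cdo1 and Afmid were highest at fractions 11 to 13 in both gradients, and no other member was highest at fractions 10 to 14 in both. With the block, these 4 were the members that fell from the middle to the dense zone. The median correlation of each one's profile with those of the other members was 0.0976, 0.246, 0.312 and -0.0495 in gradient 1 and -0.186, -0.0918, -0.251 and -0.376 in gradient 2, in the same order. Gcsh, Cdo1 and Gstz1 have the 3 shortest coding sequences of the 47 (510, 600 and 648 bases), and Afmid has 915 bases. Haao (858 bases) and Gnmt (879 bases) lie between them in length and were highest at fractions 21 and 17, and at 15 and 15. Across the 47 members coding length and the change from middle to dense had a Spearman's rho of 0.19. It was 0.38 over cytosolic and 0.07 over mitochondrial members, and 0.28 across 10819 genes. Pearson's r with log2 of coding length was 0.40 over members, 0.56 over cytosolic and 0.40 over mitochondrial ones, and 0.29 across all genes. From light to dense, rho with coding length was 0.16 over members and 0.10 across all genes. This comparison and that of 3' UTRs below were chosen after the values had been seen.

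**Figure D4:**
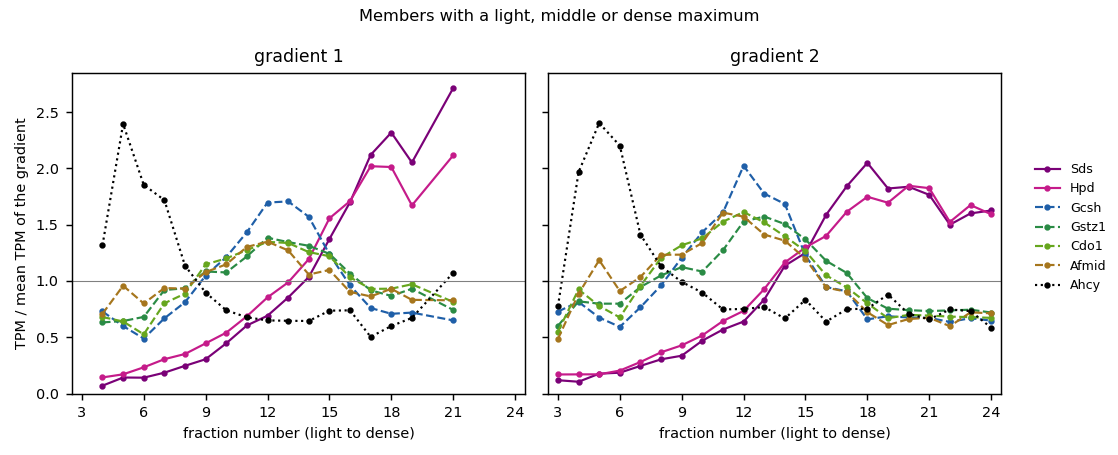
Profiles of 7 members as TPM over its mean in the gradient against fraction number: Sds and Hpd (solid) with a dense maximum, Gcsh, Gstz1, Cdo1 and Afmid (dashed) with a maximum at fractions 11 to 13, and Ahcy (dotted) with its maximum at fraction 5. Sds reaches 2.71 and 2.05 times its mean in gradients 1 and 2, and Gcsh 1.71 and 2.02 times.

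Members with short 3' UTRs had larger rises from light to dense. The 17 members with a 3' UTR under 500 bases had a median change of 2.89 (from 1.44 for Bckdhb to 3.69 for Sds), the 13 with 500 to 1000 bases 1.81 and the 17 with over 1000 bases 1.55. The same order held in both gradients (2.95, 1.98 and 1.73, and 2.82, 1.69 and 1.38). Over all genes with a length the medians were 0.30, -0.06 and -0.74. Spearman's rho between 3' UTR length and change was -0.59 over the 47 members, -0.59 over cytosolic and -0.47 over mitochondrial ones, -0.58 over the 43 with under 10% of 31-mers in other genes, and -0.33 over 10819 genes. By step, rho was -0.62 from light to middle and -0.25 from middle to dense over members, and -0.36 and -0.10 over all genes. The relation from light to dense is thus seen among genes at large. Members with long 3' UTRs such as Cbs (4299 bases, change 2.06) and Hal (2985 bases, change 2.26) depart from it. Lengths are those of 1 annotated transcript per gene, and the isoforms present in these livers were not measured.

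**Figure D5:**
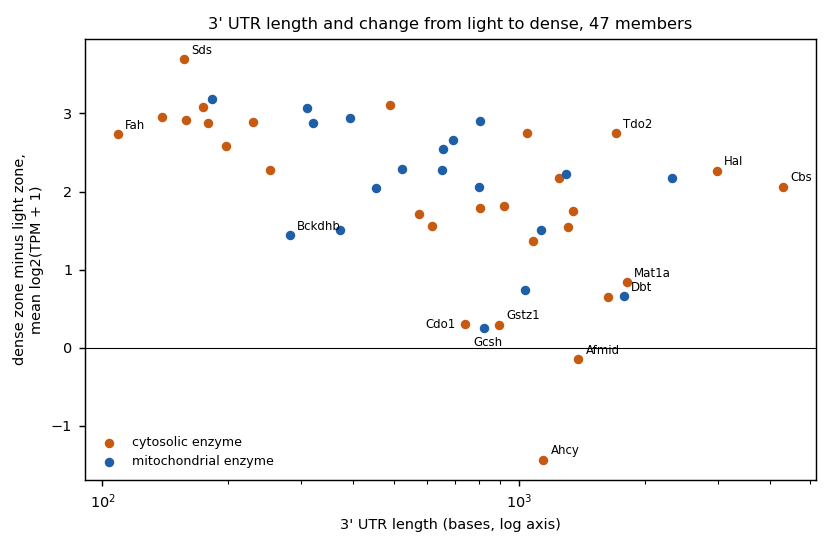
Change from light to dense (difference of mean log2(TPM + 1)) against annotated 3' UTR length in bases on a log axis, 1 point for each of the 47 members, colored by compartment. Spearman's rho is -0.59, with Sds (157 bases, 3.69) at the upper left and Ahcy (1142 bases, -1.43), whose sequence is largely shared with a copy, at the bottom.

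Other lists of metabolic genes moved the same way. Of 63 further genes of amino acid metabolism tested, 44 rose and 6 fell from light to dense, with a median of 1.28. Of 22 genes of the citric acid cycle and pyruvate dehydrogenase 20 rose, with a median of 2.18. Of 20 genes of glycolysis and gluconeogenesis 19 rose, with a median of 2.32. Among all genes tested 22.3% rose and 39.6% fell, with a median of -0.43. The median of the 47 members, 2.18, lay close to those of the last 2 lists, so a rise of this size was also found for other metabolic enzymes.

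Cytosolic and mitochondrial enzymes of the same reaction were not always alike. The aspartate aminotransferases Got1 and Got2 rose by 2.05 and 1.84, with R = 0.986 and 0.968 between them. Gpt rose by 2.88, whereas its mitochondrial counterpart Gpt2 had 281 and 423 TPM in the light and 397 and 477 in the dense zone (0.35, adjusted p = 0.294), and the profiles correlated at 0.726 and 0.137. Mthfd1 rose by 2.89 and the mitochondrial Mthfd1l by 0.99 (adjusted p = 0.00528), with profiles correlating at 0.802 and 0.609. Mthfd1l had 0.742 and 0.975 TPM in the light and 2.58 and 2.74 in the dense zone, a level at which the pseudocount makes the change smaller.

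Some members overlap other annotated genes, and their values may hold reads of those. This holds on the same strand for 7 of the 47 (Hpd, Afmid, Cth, Oat, Dbt, Mccc1 and Pcca) and on the opposite strand for 24. The libraries were stranded, and whether strand was used in assigning reads is not given in the sources used here.

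Markers of cell types moved as well. The 7 hepatocyte markers, among them the secreted proteins albumin, Apoa1 and Ttr, summed to 26357 to 59547 TPM in light libraries and 9334 to 21859 in dense ones. The 7 Kupffer cell markers summed to 144 to 200 TPM and 60.7 to 86.1, the 6 sinusoidal endothelial markers to 38.1 to 74.7 and 17.4 to 36.5, 5 of 6 stellate cell markers to 31.9 to 77.0 and 9.79 to 20.2, and 3 of 5 erythroid markers to 258 to 496 and 66.4 to 106. Cholangiocyte markers (3 of 4) summed to 2.35 to 5.55 TPM in light libraries and to 3.18 to 6.78 in dense ones. Lymphocyte markers (2 of 4) summed to 1.34 to 3.54 and 0 to 1.38 TPM. Their part in the members' changes was not tested. When TPM was rescaled without the 50 most abundant genes, 39 members rose and 1 fell from light to dense, with 2592 of all genes higher and 4812 lower.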

How the data were processed

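The authors made stranded libraries of liver RNA depleted of ribosomal RNA, used Kallisto with RefSeq transcripts of mm10, and deposited a table of TPM by gene for each gradient, limited to genes over 1 TPM in at least 1 fraction. The submitters' notes name bcl2fastq 2.16.0.10, and the Kallisto version is not given in the sources used here. All value columns matched a sample (0 unmatched). TPM gives no counts, so no count model, interval or depth could be had and precision rests on the spread between 2 gradients.

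Zone means of log2(TPM + 1) (24 libraries, 4 fractions per zone, mean TPM of at least 1) were compared with limma 3.58.1 (trend in eBayes, R 4.3.3). The code was also run on simulated data in which zones varied independently, unlike the real gradients. No support for the calls is drawn from that run. The gradient pairs the zones: deviations of the gradients correlated across genes at r = 0.665 (light and middle), 0.540 (light and dense) and 0.798 (middle and dense). Full values are given for the 5 largest called rises and falls at a mean of at least 10 TPM with 1 direction in both gradients, for entry or rate-limiting enzymes, for Fah, Shmt1 and Shmt2, and for members of opposite sign; Gstz1, Gcsh, Cdo1 and Csad were added after their values were seen. Members and lists were chosen with earlier results of these data known. Lengths, positions and shared 31-mers come from GENCODE M21 (GRCm38, as mm10). Alternatives were the pseudocount, filters on TPM, the block, 2 other scalings, zone borders and leaving out libraries. Python 3.11.15 was used. Protein data were not analysed here.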

Additional observations from a re-analysis of the deposited data

How the results depend on the processing

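No change of a member turned its direction past the threshold under any alternative: of 4653 comparisons of a member's change with an alternative, 4506 kept their side of the threshold, 93 lost the call and 54 gained it. From light to dense, 39 to 40 members were higher and 1 lower with 1 library left out. The replicate block gave 36 higher and 4 lower members from middle to dense in place of 22 and 1, since it removes the level of the gradient, and it ended no call. Beside the calls given with the results, it added Tdo2, Acmsd, Amdhd1, Sdsl, Gldc, Amt, Mat1a, Prodh, Dbt, Csad and Aass from middle to dense (adjusted p of 0.00104 to 0.0463) and Tdo2 (0.00031) and Csad (0.0141) from light to middle. It moved all genes from 2762 to 4369 higher from light to middle and from 563 to 1661 higher and 2645 to 4614 lower from middle to dense. A mean TPM of at least 10 left 2570 in place of 4658 genes lower from light to dense and 1472 in place of 2827 from light to middle, with 7233 genes tested.

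The following medians moved by more than the spread between gradients, with the cause not tested. Under quantile normalization the cytosolic and mitochondrial medians were 1.88 and 2.07 from light to dense, 1.02 and 1.09 from light to middle, and the mitochondrial one was 0.78 from middle to dense, where 2 members were lower. Rescaling without the 50 most abundant genes gave 1.01 (cytosolic) and 1.19 (mitochondrial) from light to middle and 1.12 and 0.80 from middle to dense. Narrow zones gave 1.51 for mitochondrial members from light to middle. Shifting the zones of gradient 2 by 1 fraction to the dense side gave a mitochondrial median of 2.06 from light to dense, medians of 0.99 and 0.62 from middle to dense, 13 members higher there, and 255 and 1664 of all genes higher and lower. A shift to the light side gave 1.09 and 0.83 from middle to dense. Over 22 fractions of gradient 2 the median centers were 16.9 (cytosolic) and 16.3 (mitochondrial).

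With 1 library or 1 gradient left out, the cytosolic median ranged from 2.06 to 2.16 and the mitochondrial from 2.13 to 2.31 from light to dense, from 1.09 to 1.23 and 1.28 to 1.43 from light to middle, and from 0.97 to 1.09 and 0.67 to 0.78 from middle to dense. Members higher ranged from 35 to 38 from light to middle and from 18 to 24 from middle to dense. Single libraries that ended a call beyond those named with the results were fractions 7, 13 (gradient 1), 6, 7 and 13 (gradient 2) for Kmo from light to middle (adjusted p up to 0.0544), fractions 4, 6, 7, 13 and 6, 7, 12, 13 for Uroc1 there (up to 0.0872), and fractions 7, 10, 17 and 4, 10, 11 for Gpt from middle to dense (up to 0.0605). Mitochondrial members higher from middle to dense numbered 5 to 9. With 1 gradient no residual degrees of freedom remain, so no test was made there. TPM hides the depth, which limits low members such as Acmsd and Mccc1.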

Other observations

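Among the 63 further genes of amino acid metabolism, the 6 that fell from light to dense were Mmab (-1.26), Mthfd2l (-1.24), Bcat2 (-1.19), Ppm1k (-0.73), Adi1 (-0.55) and Pcbd1 (-0.52). They were singled out after their values were seen. Mthfd2l was low, with 2.13 and 2.08 TPM in the light and 0.341 and 0.296 in the dense zone. At that level the pseudocount makes the change smaller, and the depth is unknown. Mmab prepares the cobalamin cofactor of Mut, which rose by 2.22. Bcat2 is a mitochondrial branched-chain aminotransferase, and Ppm1k is the phosphatase of the branched-chain ketoacid dehydrogenase, whose subunit Bckdha rose by 2.88. Pcbd1, a dehydratase of tetrahydrobiopterin recycling, changed by 0.94 from light to middle and by -1.47 from middle to dense, with 581 and 577 TPM in the light, 1076 and 1166 in the middle and 391 and 397 in the dense zone.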
